A study of Mus musculus with 6 samples.

Results

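The genes studied here encode the molecules that display peptides on the cell surface and the machinery that makes and loads those peptides. They are every row of the count tables whose symbol starts with H2-, the mouse major histocompatibility complex (MHC), together with B2m, Tap1, Tap2, Tapbp, Psmb8, Psmb9, Psmb10, Psme1, Psme2, Erap1, Nlrc5, Cd74, Ciita, Ctss and Ifi30. This gave 59 of the 26214 rows, of which 44 start with H2- and 15 were named. At least 1 read was found for 55 of the 59, and 48 passed the filter on low counts and were tested among 16281 genes. RNA was sequenced from colon tumours of Trim21 -/- mice (3 samples) and Trim21 +/+ mice (3 samples). Mice of both genotypes had been given AOM, a carcinogen, and DSS, which injures the colon lining. Trim21 encodes a ubiquitin ligase that binds antibody inside cells, and the comparison asks how tumours without it differ. The labels do not say whether each sample was the tumour of its own mouse, nor give strain, age, sex or the deleted part of the gene, so a p-value speaks only of how far these 6 samples scatter.

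MHC class I molecules consist of a heavy chain and beta-2 microglobulin, are made by nearly all nucleated cells and show peptides from the cytosol to CD8 T cells. The proteasome cuts these peptides, the TAP transporter carries them into the endoplasmic reticulum, and Nlrc5 switches on the class I genes. MHC class II molecules are made mainly by B cells, dendritic cells and macrophages, show peptides from endosomes to CD4 T cells, and depend on the activator Ciita; gut epithelium can also make them when exposed to interferon gamma.

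The promoters of several of these genes carry short elements through which Nlrc5, Ciita and the interferon response act. Promoters are shown so that the placing of these elements can be compared. RefSeq windows on GRCm38.p6 were at hand for 43 of the 59 members, 47 windows in all, each spanning 250 bases before and 50 after the start. The Y box was searched as CTGATTGG, the X box by a 10-base pattern with open positions, an interferon element as GAANNGAAA and a STAT element as TTCCNGGAA, each on both strands. Printed below are the 250 bases before the start, on the strand of the gene, with every match in capitals: H2-D1 (chr17:35262844-35263093, plus strand) and H2-Q7 (chr17:35438905-35439154, plus strand) for class I, H2-Eb1 (chr17:34305617-34305866, plus strand) and H2-Aa (chr17:34287824-34288073, minus strand) for class II, and Tap1 (chr17:34187306-34187555, plus strand) for peptide transport.
H2-D1: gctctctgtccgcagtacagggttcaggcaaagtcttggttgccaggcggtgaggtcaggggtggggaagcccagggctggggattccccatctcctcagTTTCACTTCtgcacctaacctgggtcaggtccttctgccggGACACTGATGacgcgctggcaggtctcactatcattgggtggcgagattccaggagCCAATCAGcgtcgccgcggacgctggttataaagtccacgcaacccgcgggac
H2-Q7: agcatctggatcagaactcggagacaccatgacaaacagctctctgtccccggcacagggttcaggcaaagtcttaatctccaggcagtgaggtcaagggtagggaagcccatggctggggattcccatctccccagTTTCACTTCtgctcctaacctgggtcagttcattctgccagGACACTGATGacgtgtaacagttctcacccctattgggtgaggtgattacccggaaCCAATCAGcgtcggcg
H2-Eb1: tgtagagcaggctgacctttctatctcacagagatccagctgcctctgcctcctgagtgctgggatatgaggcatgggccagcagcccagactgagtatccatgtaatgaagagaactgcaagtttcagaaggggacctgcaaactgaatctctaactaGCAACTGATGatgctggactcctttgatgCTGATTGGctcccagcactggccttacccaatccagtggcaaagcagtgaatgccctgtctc
H2-Aa: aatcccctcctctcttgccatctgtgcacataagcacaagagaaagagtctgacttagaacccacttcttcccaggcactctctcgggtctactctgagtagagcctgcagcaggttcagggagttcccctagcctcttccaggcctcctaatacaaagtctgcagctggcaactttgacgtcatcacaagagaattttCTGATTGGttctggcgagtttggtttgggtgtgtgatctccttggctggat
Tap1: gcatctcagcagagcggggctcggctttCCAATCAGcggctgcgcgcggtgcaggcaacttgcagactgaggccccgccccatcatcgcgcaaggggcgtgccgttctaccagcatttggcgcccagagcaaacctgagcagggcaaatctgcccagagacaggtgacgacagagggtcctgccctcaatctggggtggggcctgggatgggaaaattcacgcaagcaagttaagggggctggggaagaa
In H2-D1 the interferon element began at base -150, the X box at -109 and the Y box at -53, counted from the start. H2-Q7 had the same order at -113, -72 and -16, and H2-Q6 at -152, -111 and -55. The spacing was the same in these 3 class I genes, 41 bases between the beginnings of the interferon element and the X box and 56 between those of the X and Y boxes. In the class II chain genes H2-Eb1 and H2-Eb2 the X and Y boxes began 29 bases apart. Other members with both boxes had other spacings, 139, 146 and 144 bases in the class I genes H2-M10.1, H2-M10.5 and H2-M10.6 and 94 bases in the class II gene H2-Oa. Full matches to CTGATTGG lay on the minus strand in all 6 of these class I genes. In all 3 of these class II genes they lay on the plus strand. A search for the full letters misses partial matches. In the printed H2-D1 and H2-Q7 promoters, ATTGG, which ends that pattern, also stands on the plus strand between the X box and the match. These strands and spacings hold for full matches only and do not show that the classes differ in layout. A Y box was found in 46.8% of the member windows, against 4.1% of all 32851 windows of that table. For the X box these shares were 34% and 2.97%, for the interferon element 23.4% and 7.52%, and for the STAT element 2.13% and 1.15%. Several of these genes are copies of each other, so their windows are not independent, and a match describes letters, not binding. The Tap1 window overlaps that of Psmb9, which lies beside it on the other strand.

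Libraries held 17937821 to 19987295 counts in knockout tumours and 27085599 to 29742757 in wild-type tumours. Trim21 had 12.1, 18.9 and 12.8 CPM (the count scaled by library size) in knockout tumours, against 29.8, 20.3 and 19.5 CPM in wild-type tumours. It was lower in each knockout library than in any wild-type library but not absent, and its log2 fold change of -0.67 (SE 0.242) did not pass edgeR's test (adjusted p = 0.418). The 8 epithelial markers, among them Epcam and Krt8, summed to 7928.1 to 8258.7 CPM in knockout tumours and 6969.5 to 7903.8 CPM in wild-type tumours, with reads for all 8 in every library. They did not all go one way: 5 had a log2 fold change above 0 and 3 below, from -0.26 to 0.6.

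No member passed edgeR's quasi-likelihood test at a Benjamini-Hochberg adjusted p of 0.05: 0 of 48 were called, against 0% of all genes tested. The smallest adjusted p of a member was 0.334, and limma-voom also called none of the members, against 0% of all genes. At an unadjusted p under 0.05, 4 members were higher in knockout tumours, 8.33% of the 48, against 6.63% of all genes, and 0 were lower, against 4.12%. Groups did not overlap, with the knockout above, for 5 members, against 9.43% of all genes, and with the knockout below for 0, against 8.47%. DESeq2 called 1 member higher, H2-Q1, against 1.51% of all genes, and 0 lower, against 0.559%. Although single genes did not pass, the log2 fold change (knockout over wild type) was above 0 for 41 of 48 members, 85.4%, against 47.9% of all genes. The median over the tested members was 0.20, against -0.01 over all genes. The members share regulators and cells of origin, so these shares describe them and are no test. H2-L, H2-Q9 and H2-T9 are counted among those above 0, although they cannot be taken as separate measurements, as described below. In bulk tissue, fewer cells of a type and less RNA per cell cannot be told apart.

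**Figure D1:**
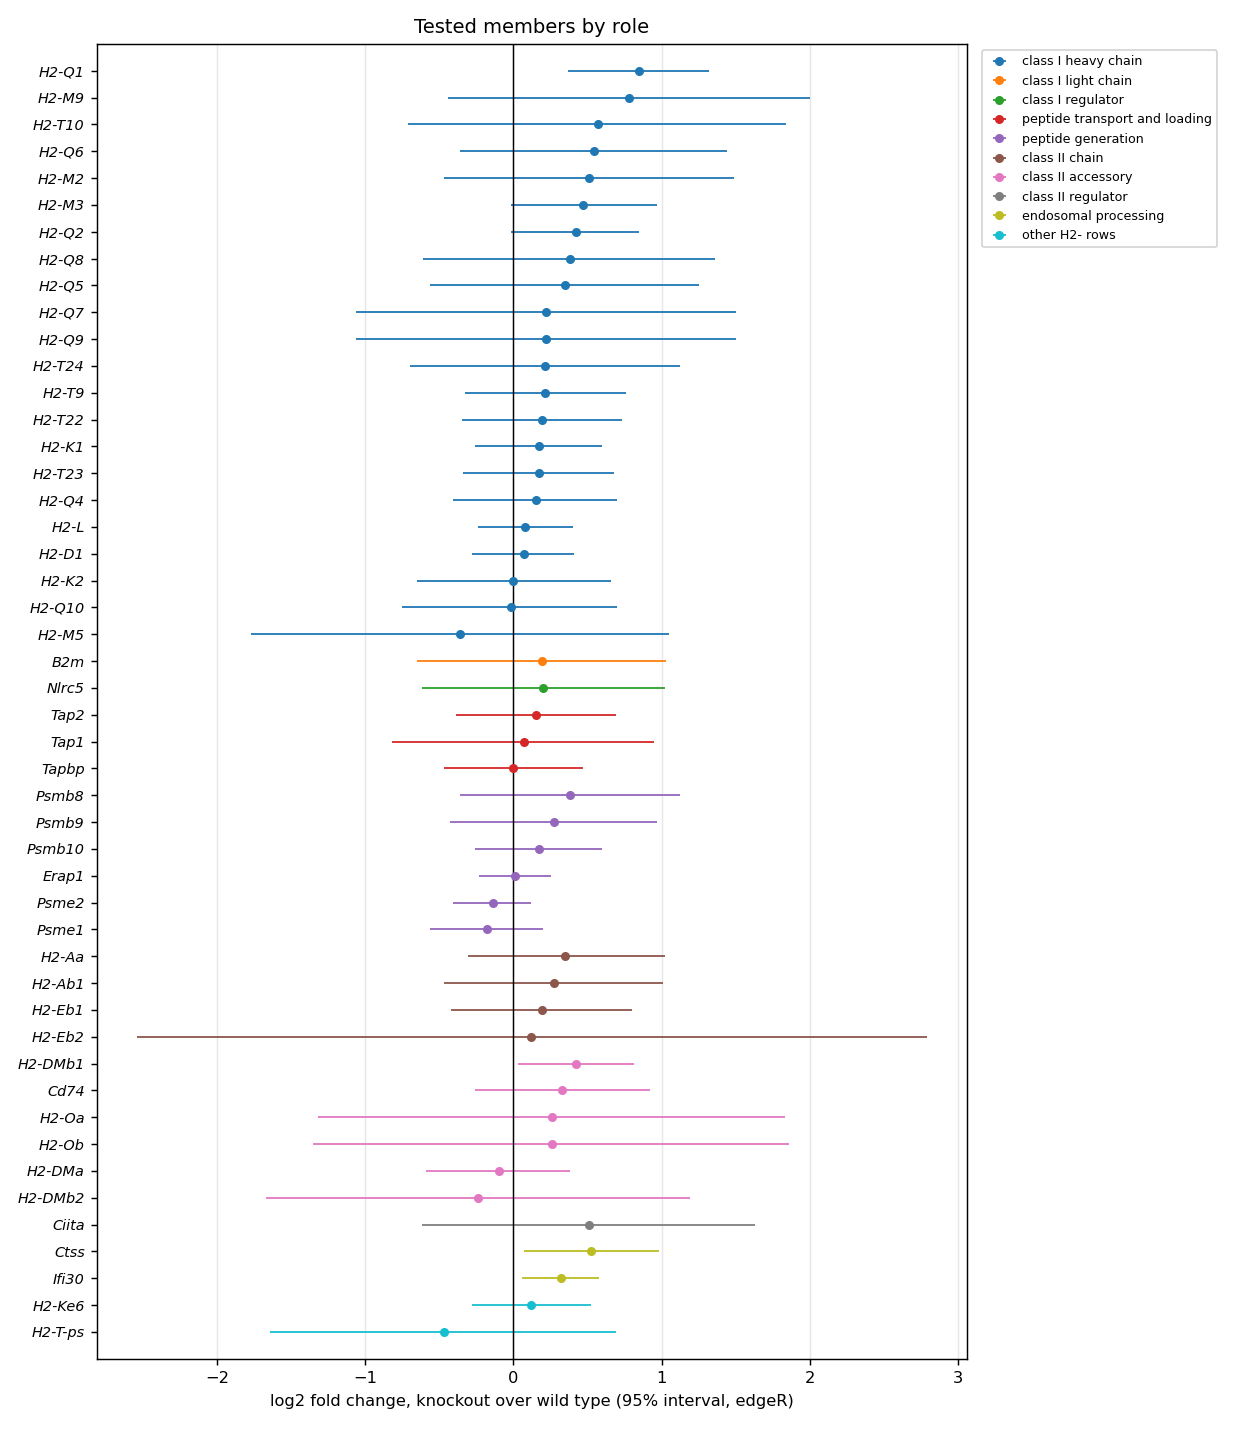
Log2 fold change of each of the 48 tested members, knockout over wild type, with its 95% interval from edgeR; colours give the role. Most points lie right of 0, from -0.47 for H2-T-ps to 0.85 for H2-Q1, and most intervals include 0.

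The classical class I heavy chains H2-K1 and H2-D1 were among the most abundant members, and their ranges overlapped between genotypes. H2-K1 (chr17:33996017-34000347) had 360.5, 502.9 and 488.4 CPM in knockout tumours, against 397.8, 322.5 and 483.1 CPM in wild-type tumours. Groups overlapped, with the first knockout library below 2 of the wild-type libraries; the log2 fold change was 0.17 (SE 0.183, 95% interval -0.26 to 0.60, adjusted p = 0.752). H2-D1 (chr17:35262730-35267499) had 383.3, 535.6 and 473.4 CPM in knockout tumours and 473.5, 383.5 and 470.7 CPM in wild-type tumours. Its lowest knockout value and lowest wild-type value were nearly equal, and its log2 fold change was 0.07 (SE 0.147, 95% interval -0.28 to 0.41). Of the heavy chain reads, counted without H2-L, H2-Q9 and H2-T9, the share taken by H2-K1 was 36.6% ± 1.23 in knockout tumours and 35.9% ± 2.32 in wild-type tumours (SD, n = 3 each). For H2-D1 the share was 37.7% ± 1.70 in knockout tumours and 39.9% ± 2.05 in wild-type tumours (SD, n = 3 each).

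B2m, the light chain that every class I molecule needs, varied more between tumours than H2-K1 and H2-D1 did. It had 260.2, 625.4 and 666.8 CPM in knockout tumours, against 522.9, 320.5 and 517.9 CPM in wild-type tumours. The first knockout library had the lowest B2m of all 6 and the other two knockout libraries the highest, and the log2 fold change was 0.19 (SE 0.358, 95% interval -0.65 to 1.03). Per kilobase of exon B2m was the highest of the members with a known exon length, at 601.7 ± 260.1 CPM per kilobase in knockout tumours and 527.6 ± 134.2 in wild-type tumours (SD, n = 3 each). H2-K1 followed on that scale at 272.3 ± 47.3 CPM per kilobase in knockout tumours and 242.4 ± 48.5 in wild-type tumours. The class I activator Nlrc5 had 9.47, 23.8 and 21.3 CPM in knockout tumours and 15.8, 12.1 and 19.5 CPM in wild-type tumours. It too was lowest in the first knockout library and highest in the other two knockout libraries, with a log2 fold change of 0.20 (SE 0.349).

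**Figure D2:**
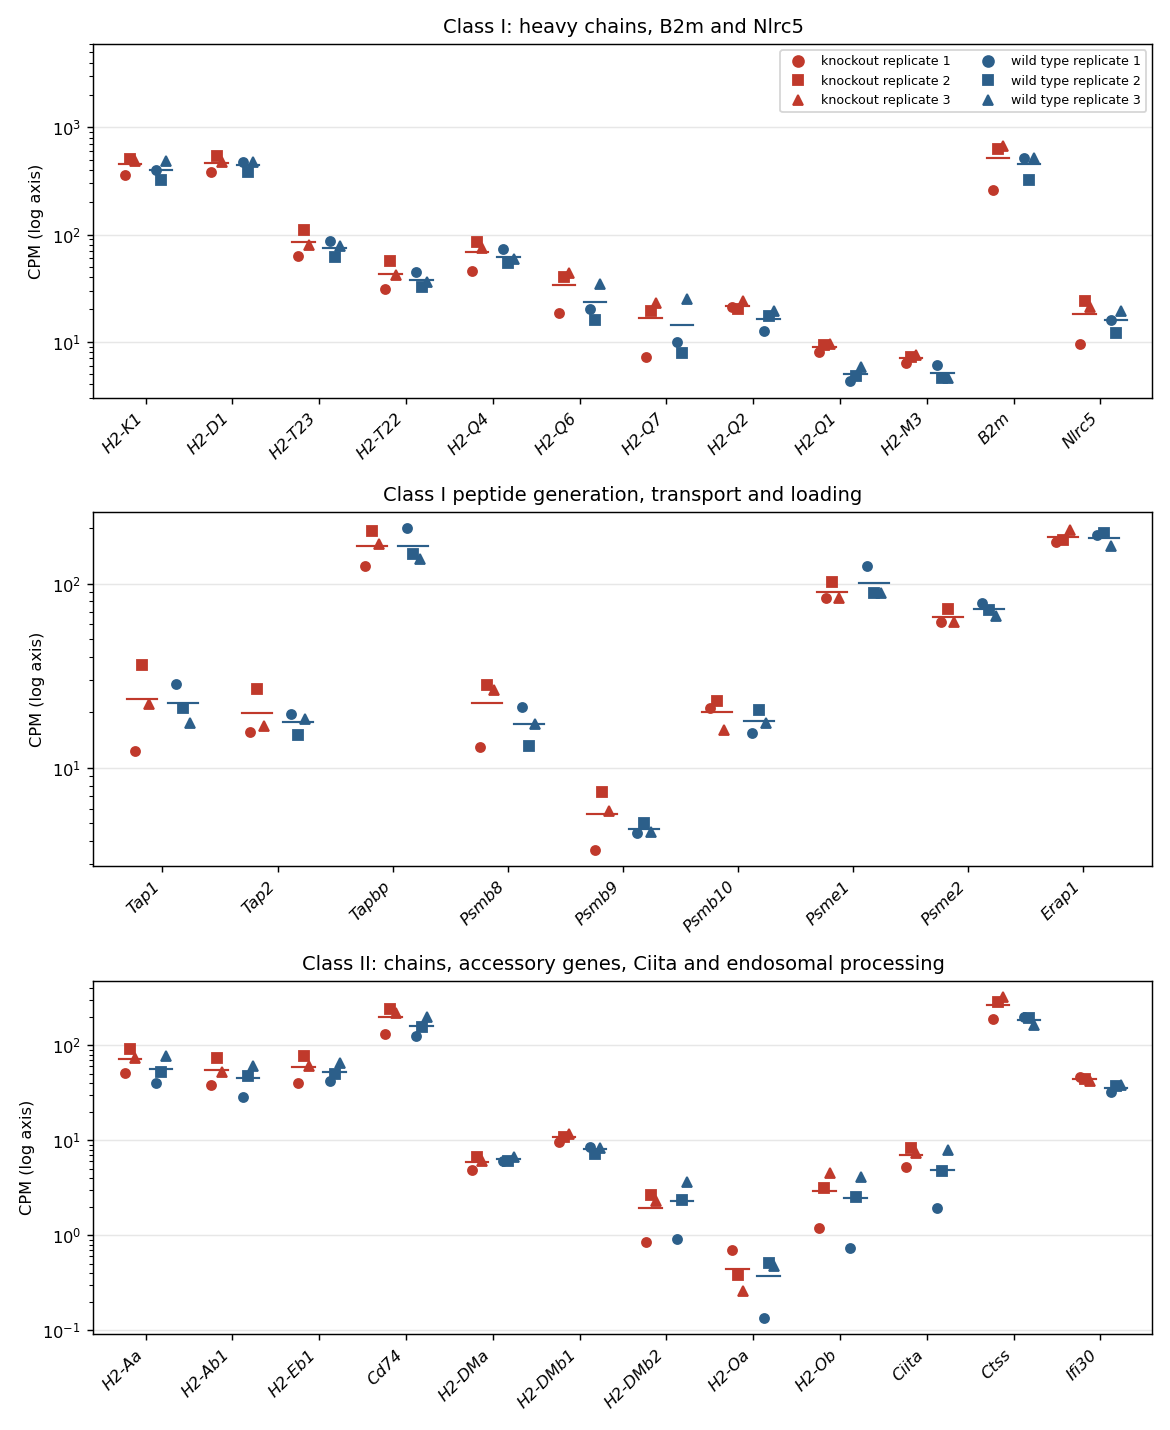
CPM on a log axis for members by role; symbols mark replicates, short lines the mean of 3 libraries, and knockout stands left of wild type. The first knockout library (circle) is the lowest of its group for many class I and processing genes, as for B2m at 260.2 CPM.

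Most nonclassical class I genes, whose products present restricted peptide sets or bind receptors of innate lymphocytes, had overlapping groups. H2-T23, which encodes the Qa-1 molecule bound by NKG2A receptors, had 63.6, 111.0 and 80.4 CPM in knockout tumours and 87.1, 61.8 and 77.6 CPM in wild-type tumours. H2-T22, whose product is recognised by some gamma delta T cells, had 30.8, 56.1 and 41.8 CPM in knockout tumours and 44.8, 32.2 and 35.8 CPM in wild-type tumours. In both genes the second knockout library was the highest of 6 and the groups overlapped, with log2 fold changes of 0.17 (SE 0.219) and 0.19 (SE 0.230). H2-Q4 had 45.6, 85.9 and 74.5 CPM in knockout tumours, against 72.8, 53.9 and 59.2 CPM in wild-type tumours. H2-Q6 had 18.7, 39.8 and 44.1 CPM in knockout tumours, against 20.0, 16.1 and 34.6 CPM in wild-type tumours. H2-Q7, a gene for the Qa-2 molecule, had 7.19, 19.3 and 23 CPM in knockout tumours, against 9.89, 7.89 and 24.8 CPM in wild-type tumours. The first knockout library was the lowest of its group for all 3 of these Q genes, and the third wild-type library the highest of its group for H2-Q6 and H2-Q7; log2 fold changes were 0.15, 0.54 and 0.22.

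H2-Q1, a nonclassical class I gene, had the smallest p of the members. It had 8.03, 9.28 and 9.46 CPM in knockout tumours and 4.29, 4.74 and 5.86 CPM in wild-type tumours. Every knockout library lay above every wild-type library, and the log2 fold change was 0.85 (SE 0.203, 95% interval 0.37 to 1.32, unadjusted p = 0.00391, edgeR). It did not pass edgeR's adjusted test (adjusted p = 0.334), whereas DESeq2 gave an adjusted p of 0.029; over the other settings the adjusted p lay between 0.307 and 0.723. H2-Q1 lies at chr17:35320405-35325099, among related Q genes. H2-Q2 also had groups that did not overlap, with 21.1, 20.1 and 24 CPM in knockout tumours, against 12.5, 17.2 and 19.2 CPM in wild-type tumours. Its log2 fold change was 0.42 (SE 0.186, adjusted p = 0.479, edgeR). The third such gene was H2-M3, which presents formylated bacterial peptides, with 6.40, 7.19 and 7.50 CPM in knockout tumours and 6.07, 4.54 and 4.56 CPM in wild-type tumours. Its log2 fold change was 0.47 (SE 0.212, adjusted p = 0.480, edgeR).

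Some class I rows cannot be taken as separate measurements. H2-Q9 carried exactly the counts of H2-Q7 in all 6 libraries. H2-L carried 58.7% to 60.8% of the H2-D1 count in knockout tumours and 58.2% to 59.4% in wild-type tumours, and H2-T9 carried 87.3% to 89.4% of the H2-T22 count in knockout tumours and 86.1% to 87.6% in wild-type tumours. H2-L had 233.1, 315.8 and 277.7 CPM in knockout tumours and 275.7, 227.5 and 279.5 CPM in wild-type tumours. H2-T9 had 26.9, 49.6 and 37.3 CPM in knockout tumours and 38.6, 28.2 and 31.3 CPM in wild-type tumours. Both rows overlapped between groups, with log2 fold changes of 0.08 and 0.21, and how the counter split reads among near-identical genes is not given in the sources used here. The other tested rows listed here as class I heavy chains were H2-K2, H2-Q5, H2-Q8, H2-Q10, H2-T10, H2-T24, H2-M2, H2-M5 and H2-M9. These had overlapping groups and log2 fold changes between -0.36 for H2-M5 and 0.78 for H2-M9. GENCODE types H2-K2 as a transcribed pseudogene, and H2-Q5, H2-T10 and the untested H2-Bl as polymorphic pseudogenes. All of them are counted with class I here. H2-M5 had 0.198, 0.329 and 0.776 CPM in knockout tumours, against 0.403, 0.643 and 0.630 CPM in wild-type tumours. Below the filter were H2-Bl, H2-Ea, H2-M1, H2-M11, H2-T3 and the 6 H2-M10 rows, of which H2-M1, H2-M10.3, H2-M10.4 and H2-M10.5 had no read in any library. Over the 23 tested class I rows, B2m included, the median log2 fold change was 0.21. Of these rows 21 were above 0, H2-L, H2-Q9 and H2-T9 among them, against 47.9% of all genes. Past edgeR's test were 0, against 0% of all genes.

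The transporter and loading genes did not separate the genotypes. Tap1, a subunit of the peptide transporter, had 12.3, 36.0 and 22.2 CPM in knockout tumours and 28.5, 21.2 and 17.5 CPM in wild-type tumours. The knockout values enclosed all wild-type values, and the log2 fold change was 0.07 (SE 0.376, 95% interval -0.82 to 0.95). Tap2, the other subunit, had 15.7, 26.6 and 16.9 CPM in knockout tumours and 19.6, 15.1 and 18.5 CPM in wild-type tumours, a log2 fold change of 0.15 (SE 0.229). Tapbp, which encodes tapasin and holds class I at the transporter, had 124.6, 192.6 and 164.1 CPM in knockout tumours and 199.6, 144.5 and 136.9 CPM in wild-type tumours. Its groups overlapped almost fully, with a log2 fold change of 0.00 (SE 0.199, 95% interval -0.47 to 0.47).

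The inducible proteasome subunits Psmb8, Psmb9 and Psmb10, which replace Psmb5, Psmb6 and Psmb7 in the immunoproteasome, had means somewhat higher in knockout tumours with wide spread. Psmb8 had 13, 28.0 and 26.4 CPM in knockout tumours and 21.4, 13.1 and 17.3 CPM in wild-type tumours. Psmb10 had 21.1, 23 and 16.1 CPM in knockout tumours and 15.5, 20.6 and 17.5 CPM in wild-type tumours. Groups overlapped for both, with log2 fold changes of 0.38 (SE 0.315) and 0.17 (SE 0.183), and for Psmb9, at 0.27 (SE 0.297). Per kilobase of exon, Psmb8 stood at 13.4%, 34.9% and 39.7% of the Psmb5 level in knockout tumours and at 26.8%, 15.4% and 16.8% in wild-type tumours. The log2 ratio of Psmb9 to Psmb6 counts was -3.62, -2.53 and -2.52 in knockout tumours and -3.45, -3.02 and -3.43 in wild-type tumours. Psmb10 stood at 33.8%, 38.4% and 30.2% of the Psmb7 level in knockout tumours and at 23.1%, 34.5% and 25.2% in wild-type tumours. For Psmb8 and Psmb9 the first knockout library was the lowest of 6 and the other two knockout libraries the highest; the Psmb10 ranges overlapped. Psmb9 and Tap1 overlap on opposite strands, over 15.7% of the Psmb9 exons, and the use of strand in counting is not given in the sources used here.

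**Figure D3:**
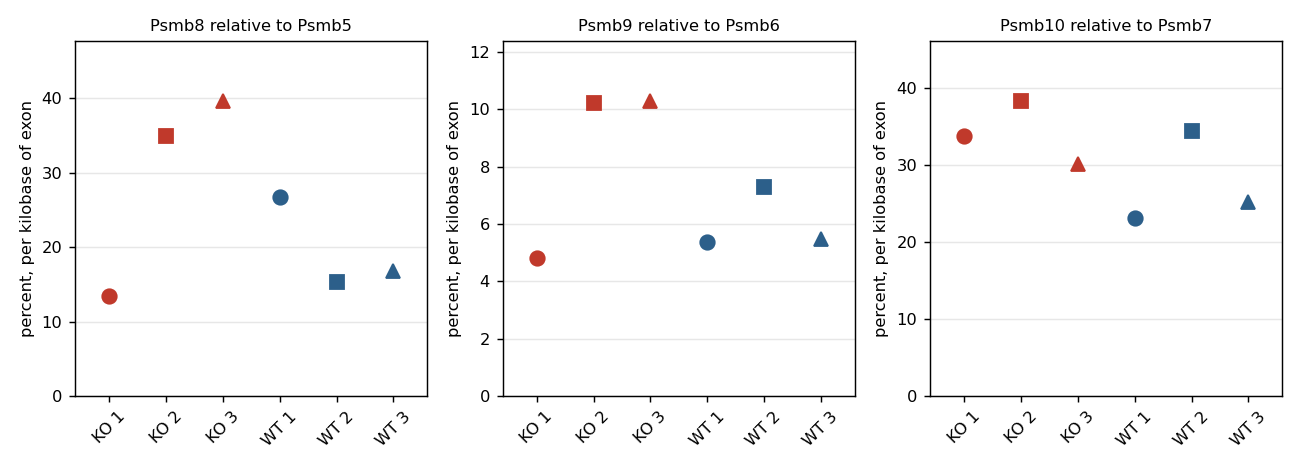
Level of each inducible proteasome subunit as a percentage of the constitutive subunit it replaces, both per kilobase of exon, in each library. Psmb8 reaches 34.9% and 39.7% in 2 knockout libraries, while the first knockout library at 13.4% is below all wild-type libraries.

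Psme1 and Psme2, the subunits of the PA28 proteasome activator, were the members with the smallest p among those with a lower mean in knockout tumours. Psme1 had 83.2, 102.2 and 83.4 CPM in knockout tumours and 124.9, 89.3 and 89.3 CPM in wild-type tumours. Psme2 had 61.7, 73.1 and 62.1 CPM in knockout tumours and 78.9, 71.5 and 67.1 CPM in wild-type tumours. In both genes the second knockout library alone reached into the wild-type range, and log2 fold changes were -0.18 (SE 0.161) and -0.14 (SE 0.113, adjusted p = 0.659, edgeR). Without the first wild-type library these log2 fold changes were 0.00 and -0.08. Erap1, the aminopeptidase that trims peptides in the endoplasmic reticulum, had 168.2, 172.1 and 196.3 CPM in knockout tumours and 184.3, 187.7 and 160.9 CPM in wild-type tumours. It had the narrowest interval of the processing genes, with a log2 fold change of 0.01 (SE 0.101, 95% interval -0.23 to 0.25). Over the 9 processing genes the median log2 fold change was 0.07. Of these genes 7 were above 0, among them Tapbp, whose value rounds to 0.00, against 47.9% of all genes.

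Class II chain genes had higher means in knockout tumours, within the spread of the libraries. H2-Aa, the alpha chain of the I-A molecule, had 51.3, 92.6 and 73.1 CPM in knockout tumours and 40.4, 52.9 and 76.5 CPM in wild-type tumours. H2-Ab1, its beta chain, had 38.6, 73.9 and 52.5 CPM in knockout tumours and 28.8, 47.4 and 60.7 CPM in wild-type tumours. H2-Eb1, the beta chain of I-E, had 40.1, 77.6 and 60.1 CPM in knockout tumours and 41.9, 49.5 and 64.5 CPM in wild-type tumours. The second knockout library was highest for all 3, the third wild-type library stood second, and groups overlapped. Log2 fold changes were 0.35 (SE 0.282, adjusted p = 0.663), 0.27 (SE 0.316) and 0.19 (SE 0.258) by edgeR. Without the second knockout library they were 0.14, 0.00 and -0.05, and without the first wild-type library 0.16, 0.03 and 0.06. Cd74, the invariant chain that escorts class II to endosomes, had 133.1, 243.7 and 221.6 CPM in knockout tumours and 124.5, 154.6 and 197.4 CPM in wild-type tumours. It followed the same order of libraries as the chains within the knockout group, with a log2 fold change of 0.33 (SE 0.252). H2-Eb2 had 0.694, 1.04 and 2.22 CPM in knockout tumours and 0, 1.39 and 2.26 CPM in wild-type tumours. H2-Ea, the partner of H2-Eb1, had no read in 5 libraries and 4 reads in the third wild-type library.

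Among the editors of class II peptides, H2-DMb1 stood apart from its partner. H2-DMb1, a beta chain of the DM molecule, which helps class II exchange peptides, had 9.72, 10.8 and 11.7 CPM in knockout tumours and 8.52, 7.28 and 8.27 CPM in wild-type tumours. Groups did not overlap, and the log2 fold change was 0.42 (SE 0.166, 95% interval 0.03 to 0.81, adjusted p = 0.437, edgeR). H2-DMa, the alpha chain, had 4.86, 6.70 and 6.05 CPM in knockout tumours and 6.10, 6.09 and 6.71 CPM in wild-type tumours, with overlapping groups and a log2 fold change of -0.10 (SE 0.206). The log2 ratio of H2-DMa to H2-DMb1 counts was -1.0, -0.68 and -0.96 in knockout tumours and -0.48, -0.26 and -0.30 in wild-type tumours. These ranges did not overlap, but the pair was chosen after its values were seen and the ratio was not tested. H2-DMb2, the other beta chain gene, ranged from 0.843 to 2.69 CPM in knockout tumours and from 0.906 to 3.63 CPM in wild-type tumours. H2-Oa and H2-Ob encode the DO molecule, which restrains DM and is found mainly in B cells. H2-Ob had 1.19, 3.13 and 4.50 CPM in knockout tumours and 0.738, 2.54 and 4.12 CPM in wild-type tumours. H2-Oa had 0.694, 0.384 and 0.259 CPM in knockout tumours and 0.134, 0.508 and 0.482 CPM in wild-type tumours, and its counts were 14, 7 and 5 reads in knockout tumours and 4, 15 and 13 in wild-type tumours. Within the knockout group H2-Oa was highest where H2-Ob was lowest.

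Ciita, the class II activator, was lowest in the first wild-type library. It had 5.21, 8.35 and 7.29 CPM in knockout tumours and 1.95, 4.77 and 7.97 CPM in wild-type tumours. The groups overlapped, and the log2 fold change was 0.51 (SE 0.479, 95% interval -0.62 to 1.63, adjusted p = 0.715, edgeR). It was 0.12 without the first wild-type library and 1.04 without the third. Ctss encodes cathepsin S, which degrades the invariant chain, and had 190.2, 287.6 and 325.3 CPM in knockout tumours and 201.2, 192.2 and 165.1 CPM in wild-type tumours. The first knockout library lay among the wild-type values, and the log2 fold change was 0.52 (SE 0.195, 95% interval 0.07 to 0.98, adjusted p = 0.421, edgeR). Ifi30 encodes GILT, which reduces disulfide bonds in endosomes, and had 47.0, 44.2 and 42.7 CPM in knockout tumours and 32.1, 37.1 and 38.2 CPM in wild-type tumours. Its groups did not overlap, and the log2 fold change was 0.32 (SE 0.110, 95% interval 0.06 to 0.58, adjusted p = 0.406, edgeR). Both intervals lay above 0 before adjustment over all genes and neither gene passed after it.

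Set against each other, class I and class II gave ratios that overlapped between genotypes. The class I rows, B2m included, summed to 1496.8, 2441.5 and 2313.1 CPM in knockout tumours and 2005.4, 1513.1 and 2107.0 CPM in wild-type tumours. This sum holds H2-L, H2-Q9 and H2-T9, so some reads may enter it more than once. Without these rows it was 1229.6, 2056.7 and 1975.0 CPM in knockout tumours and 1681.2, 1249.5 and 1771.4 CPM in wild-type tumours. The class II chains with DM, O and Cd74 summed to 281.2, 512.6 and 434.4 CPM in knockout tumours and 252.0, 324.6 and 424.7 CPM in wild-type tumours. The log2 ratio of the class I sum to the class II sum was 2.41, 2.25 and 2.41 in knockout tumours and 2.99, 2.22 and 2.31 in wild-type tumours. It averaged 2.36 ± 0.09 in knockout tumours and 2.51 ± 0.42 in wild-type tumours (SD, n = 3 each), a difference of -0.15 that turned to 0.09 without the first wild-type library. That library had a class I sum within the range of the others and the lowest class II sum. With H2-L, H2-Q9 and H2-T9 left out, the log2 ratio was 2.13, 2.0 and 2.18 in knockout tumours and 2.74, 1.94 and 2.06 in wild-type tumours. The log2 ratio of Nlrc5 to Ciita counts was 0.86, 1.51 and 1.55 in knockout tumours and 3.02, 1.34 and 1.29 in wild-type tumours, again with the first wild-type library far above the rest. The median log2 fold change was 0.26 over the 10 tested class II rows, and -0.05 without the first wild-type library.

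**Figure D4:**
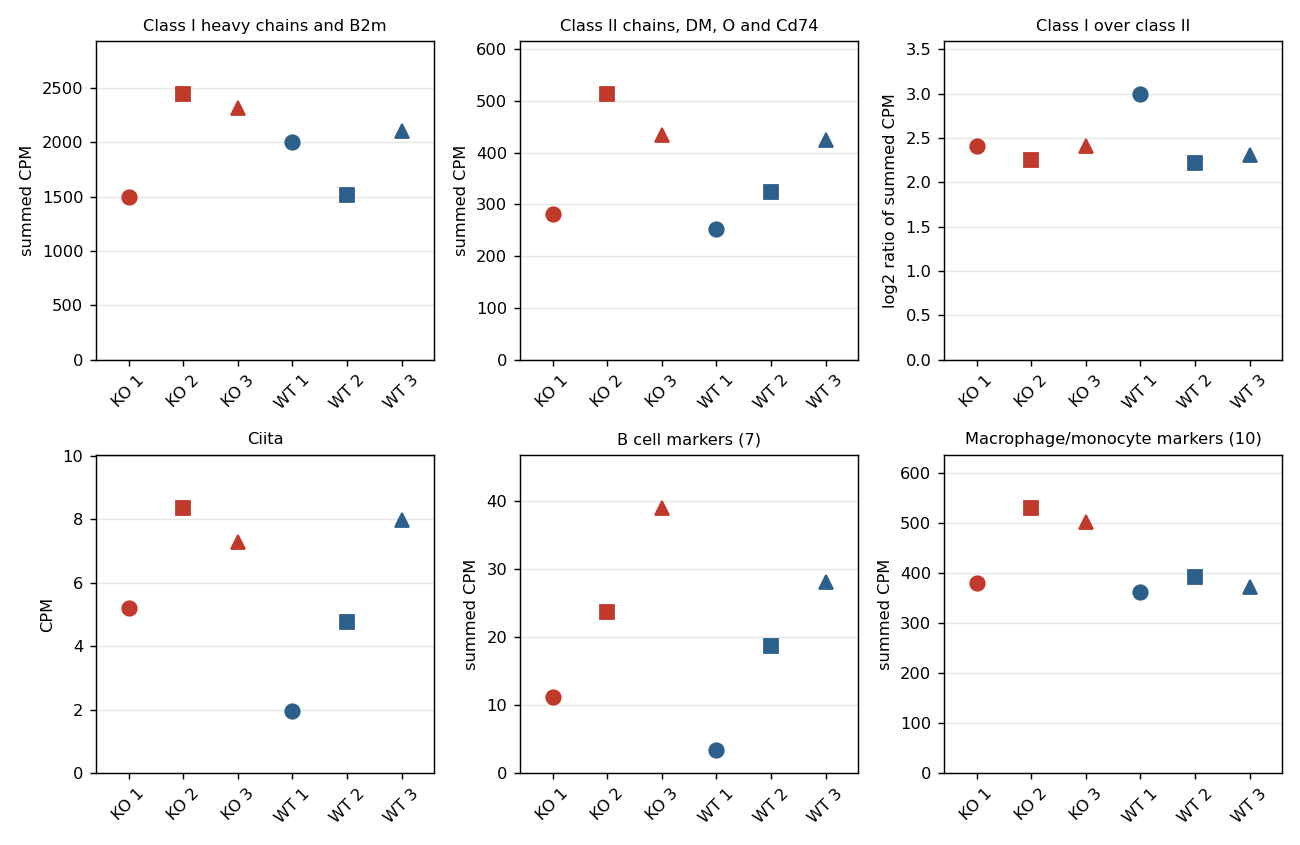
Summed CPM of class I and class II members, their log2 ratio, Ciita, and summed CPM of B cell and of macrophage and monocyte markers in each library, knockout left of wild type. The class I sum includes H2-L, H2-Q9 and H2-T9, which cannot be taken as separate measurements. The first wild-type library has the highest log2 ratio (2.99) and the lowest class II sum (252.0), Ciita (1.95) and B cell sum (3.42).

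The second knockout library was the highest of 6 for 22 of the 48 tested members, 45.8%, against 8.29% of all genes. The first knockout library, of the same genotype, was the lowest for 21 members, 43.8%, against 19.7% of all genes. In class I the lowest library was the first knockout for 10 of 23 rows and the second wild type for 9, whereas in class II it was the first wild type for 6 of 10 rows. The 22 hold H2-L and H2-T9, the 21 and the 10 hold H2-Q9 and H2-T9, and the 9 hold H2-L. These rows cannot be taken as separate measurements, as described above. Markers of several cell types differed between libraries too. Of the 7 B cell markers, which include Ms4a1 and Cd79a, 5 had a log2 fold change above 0 and 2 below, from -0.82 to 1.16. All 7 had reads in every library. They summed to 11.2, 23.6 and 38.9 CPM in knockout tumours and 3.42, 18.7 and 28.1 CPM in wild-type tumours. The first wild-type library was lowest and the first knockout library next lowest in this sum, as in the class II sum, but the order of the highest 3 differed, with the third knockout library highest here and the second knockout library highest for class II. The 10 macrophage and monocyte markers, which include Csf1r and C1qa, summed to 381.1, 530.2 and 501.5 CPM in knockout tumours and 363.1, 391.7 and 372.8 CPM in wild-type tumours. For 6 of these 10 markers every knockout library lay above every wild-type library, against 9.43% of all genes. The median log2 fold change of the 10 was 0.50, with 9 above 0 and 1 below, at -0.22. The 8 dendritic cell markers summed to 23.2 to 45.1 CPM in knockout tumours and 26.1 to 37.0 CPM in wild-type tumours, with reads in every library for 6. The 6 plasma cell markers summed to 1480.6 to 3712.8 CPM in knockout tumours and 793.3 to 1224.9 CPM in wild-type tumours. Their median log2 fold change was 1.08, with 5 above 0 and 1 below. That sum leans on its most abundant genes. Jchain had 860.0, 1501.0 and 2977.4 CPM in knockout tumours and 186.4, 517.3 and 570.7 CPM in wild-type tumours. Sdc1 overlapped, with 277.2 to 281.9 CPM in knockout tumours and 272.5 to 307.3 CPM in wild-type tumours. The 6 smooth muscle markers summed to 670.0 to 1143.0 CPM in knockout tumours and 185.1 to 644.1 CPM in wild-type tumours, with a median of 1.13. Medians were 0.66 for T cell, 0.42 for B cell and for fibroblast, 0.41 for endothelial, 0.18 for dendritic cell, 0.13 for epithelial and -0.20 for neutrophil markers, and 0.75 for the 3 tested natural killer cell markers. No marker of these lists was at 0 in every library, and their part in the results was not tested.

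The wider pathway outside the members had no gene past edgeR's test among 36 tested of 38, against 0% of all genes. Its median log2 fold change was -0.08, against -0.01 over all genes. Of the 4 loading chaperones of class I, the first by p were Pdia3 at -0.15 (SE 0.0924) and Canx at -0.08 (SE 0.0873). All 5 genes of the constitutive proteasome and its activators had log2 fold changes below 0, as had 8488 of all 16281 genes tested. Psme4 had 164.1, 186.4 and 189.6 CPM in knockout tumours against 237.5, 239.2 and 201.1 CPM in wild-type tumours (-0.33, SE 0.104, adjusted p = 0.383, edgeR). Psmb7 followed at -0.16 (SE 0.109). The 5 endosomal proteases were led by Ctsd at -0.28 (SE 0.102) and Ctsh at -0.17 (SE 0.107); Ctsl stood at -0.10, Ctsb at 0.13 and Lgmn at 0.10. Of the 7 genes whose proteins bind the X and Y box region, Nfyb stood at -0.22 (SE 0.108) and Creb1 at -0.22 (SE 0.129). In interferon gamma signalling, 9 of 10 genes were tested, led by Irf2 at 0.36 (SE 0.117) and Socs1, a feedback inhibitor, at -0.88 (SE 0.449). The ubiquitin ligases of class II turnover, Marchf1 and Marchf8, stood at 0.28 (SE 0.312) and 0.07 (SE 0.0979). Among class I-like genes outside the complex, Fcgrt, the neonatal Fc receptor, stood at 0.59 (SE 0.193, adjusted p = 0.391, edgeR) and Azgp1 at -1.62 (SE 0.967). Azgp1 had 0.744, 0.604 and 1.03 CPM in knockout tumours and 0.436, 0.812 and 6.12 CPM in wild-type tumours. Its value therefore rests on the third wild-type library.

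The remaining H2- rows are not antigen-presenting genes. H2-Ke6, an enzyme gene in the complex, had 20.5, 16 and 16.8 CPM in knockout tumours and 15.4, 14.6 and 19.2 CPM in wild-type tumours. Its groups overlapped, with a log2 fold change of 0.12 (SE 0.171), and 84.9% of its exons overlap Gm20427 on the same strand. H2-T-ps, listed with a pseudogene suffix, had 0.446, 0.714 and 1.03 CPM in knockout tumours and 0.704, 1.46 and 0.890 CPM in wild-type tumours, overlapping, with a log2 fold change of -0.47 (SE 0.495). The 95% interval of the log2 fold change lay within -1 and 1 for 26 of the 48 tested members, 54.2%, against 68.5% of all genes; for the others, H2-Q7, H2-Ob and Ciita among them, the interval reached past 1 or -1. A p that misses the threshold does not show that levels were the same.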

How the data were processed

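RNA of 6 colon tumour samples, 3 of each genotype, was depleted of ribosomal RNA and sequenced, per the labels' protocols. The authors deposited whole-number read counts per gene symbol. The submitters' processing notes name mm10, TopHat2, edgeR and limma, without versions or roles; the counter, its annotation, and its handling of strand and of reads mapping to several places are not stated in the sources used here, so how near-identical genes split reads is unknown. Counts were tested in R 4.3.3 with edgeR 4.0.16 (filterByExpr, TMM scaling, quasi-likelihood test, group as the only term, two-sided, Benjamini-Hochberg over 16281 genes), which was tested on simulated data. The standard error is the size of the log2 fold change over the square root of F, and intervals are at 95%. CPM values were computed here from the deposited counts. Values in every library are given for members of at least 10 mean CPM, for Nlrc5, Ciita, H2-Oa and H2-Ob, and for the 4 members ranked first by unadjusted p on each side; H2-M3, H2-DMa and H2-Eb2 were added after their values were seen. The members and lists were chosen with earlier results of these data known. Exon lengths come from GENCODE M21, without an entry for H2-L, H2-Q8, H2-Q9 and H2-T9; promoters come from RefSeq on GRCm38.p6. Alternatives were DESeq2 1.42.0, limma-voom (limma 3.58.1), other scalings and filters, thinning to 17937821 counts, a replicate block, and leaving out each library. Libraries of a genotype differed by more than sampling noise (chi-square per degree of freedom of 22 or more), so all were kept.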

Additional observations from a re-analysis of the deposited data

How the results depend on the processing

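DESeq2 called 246 genes higher and 91 lower in knockout tumours, against 0 by edgeR and limma-voom, and of the members 1 higher (H2-Q1, log2 fold change 0.85, adjusted p = 0.029) and 0 lower. Of 504 values for 34 named genes under 15 settings, 476 neither changed sign at 2 decimals nor crossed the threshold. Values that fell to 0.00, and DESeq2 values without an adjusted p, were counted among the 476. Of the others 1 gained a call and 27, in 16 genes, changed sign. Tapbp, at 0.00, was given no sign, so its values are among the 476. It ranged from -0.15 to 0.19 without 1 library. The smallest adjusted p of a named gene in an edgeR setting was 0.307. Tap1 changed sign to -0.06 under limma-voom and to -0.02 with the replicate block. Leaving out 1 library gave 0 to 1 genes called higher (1 without the third wild-type library), class I medians of 0.09 to 0.52, class II medians of -0.05 to 0.49, processing medians of -0.13 to 0.19 and a class I against class II difference of -0.29 to 0.09. Lowest and highest log2 fold changes without 1 library were -0.05 and 0.20 for H2-D1, -0.05 and 0.41 for H2-Eb1, -0.03 and 0.19 for H2-L, -0.04 and 0.38 for H2-Q4, -0.10 and 0.89 for H2-Q7 and H2-Q9, -0.05 and 0.39 for H2-T22, -0.07 and 0.35 for H2-T23, -0.03 and 0.42 for H2-T9, -0.04 and 0.52 for B2m, -0.38 and 0.38 for Tap1, -0.13 and 0.30 for Tap2, -0.06 and 0.06 for Erap1, -0.04 and 0.52 for Nlrc5, -0.21 and 0.53 for H2-Oa and -0.19 and 0.84 for H2-Ob; the cause was not tested. With the replicate number as a block, medians were 0.18 for class I, 0.30 for class II and 0.01 for processing, with 0 members called. Same-numbered libraries did not deviate together (correlations -0.147, -0.175 and -0.0734). These deviations were taken from means of only 3 libraries, so they cannot show whether same-numbered samples are paired. The labels do not say so either. Without H2-L, H2-Q9 and H2-T9, an alternative chosen after seeing the data, the class I against class II difference was -0.14. With 3 libraries per genotype the width of the intervals limits what can be told apart, and rows of few reads, such as H2-Oa, are the least certain.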
